A study of Mus musculus with 12 samples.

Results

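Oxidative phosphorylation is the last stage of respiration in mitochondria. Complexes I and II feed electrons from NADH and succinate into the inner membrane, complex III passes them to cytochrome c, and complex IV hands them to oxygen. Complexes I, III and IV pump protons, and complex V, the ATP synthase, lets the protons flow back to make ATP. Most subunits are encoded in the nucleus, and several subunits of complex IV exist as isoforms whose genes are used in particular tissues such as muscle or testis. The genes described here are those nuclear genes, taken by name from the deposited table: symbols starting with Nduf followed by a, b, c, s or v, Sdha to Sdhd, and symbols starting with Uqcr, Cox4 to Cox8 or Atp5. The rule found 90 of the 26218 gene rows, and no measured value entered it. Of these, 36 encode subunits of complex I, 4 of complex II, 8 of complex III, 19 of complex IV and 15 of complex V. A further 7 encode assembly or accessory factors (Ndufaf1 to Ndufaf4, Cox7a2l, Atp5s and Atp5sl). The last gene found by name, Cox4nb, is listed by RefSeq as Emc8, which belongs to a membrane insertion complex of the endoplasmic reticulum. Its change passed the test in none of the 6 comparisons below. Cyc1, a catalytic subunit of complex III, falls outside the names and is described with the electron carriers. Subunits encoded in the mitochondrial genome are not analysed here.

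RNA from mouse germ cells was profiled by 3′-end sequencing in 12 libraries, 2 in each of 6 groups. In culture, primordial germ cell-like cells (PGCLCs) of strain C57BL/6, made from embryonic stem cells through epiblast-like cells, carried the Blimp1-mVenus and Stella-ECFP reporters (BVSC). They were sorted for Blimp1-mVenus at day 4 of induction, grown on m220 stromal feeder cells, and sorted again on culture day 3, 5 or 7 (groups d4c3, d4c5 and d4c7). The embryonic cells came from an ICR and C57BL/6 mix (ICR:C57BL/6=1:1) with a Stella-EGFP reporter (SG) and were sorted for it: primordial germ cells (PGCs) at embryonic day 9.5 (E9.5), not split by sex, and male and female germ cells at E12.5. Amplification started from 10 ng of RNA in culture and 1 ng in embryo libraries. Strain, reporter, sort and input RNA thus cannot be told apart from culture itself. No label says whether the libraries of a group came from separate cultures or litters, so each p-value reflects only how far these libraries lie apart, which may be technical. Changes are log2 of RPM + 1 (RPM, reads scaled to a fixed library total) with a standard error from limma, and a gene is called to rise or fall where limma's adjusted p over all 10856 tested genes was under 0.05. A gene was tested where at least 2 libraries had 5 RPM or more.

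Depth, estimated from the smallest step of the values, was 2213555 to 5801877 reads per library, and 9324 to 9694 genes had at least 5 RPM. All 10 germ cell markers were present in these libraries, with a summed level of 2629 to 3316 RPM in culture, 3590 to 3615 RPM at E9.5 and 5961 to 7660 RPM at E12.5. Dppa3 (4770 and 4846 RPM in males) and Dazl (1163 and 1185 RPM in males) made up most of the E12.5 sum. The markers did not move together: Prdm1 and Prdm14 were highest in culture, and Tfap2c and Pou5f1 at E9.5. The sum thus does not measure the share of germ cells. The E9.5 libraries also held markers of other cells. Their 11 blood and endothelial markers summed to 4126 and 4659 RPM, against at most 171 RPM in any other library. Most of that sum was globin RNA, with Hbb-y at 1865 and 1669 RPM and Hba-x at 1322 and 1109 RPM. Of the endothelial genes Kdr was highest at E9.5, Tek was highest in culture and Cdh5 was at 0 in all 12. Pecam1 was at 72.1 and 74.8 RPM at E9.5 and highest in E12.5 females, at 151 and 148 RPM. Their 10 fibroblast and stromal markers summed to 677 and 707 RPM against 211 to 509 RPM elsewhere. Of these Vim, Col1a1, Col1a2, Col3a1, Pdgfra and Lum were highest at E9.5. Fn1 (364 and 324 RPM at E9.5, up to 417 RPM in culture), Pdgfrb and Dcn reached higher values in culture. Thy1 reached at most 0.313 RPM. The 6 mesoderm markers, led by Meox1 (33.8 and 36.8 RPM at E9.5), summed to 52.3 and 54.4 RPM at E9.5 against at most 15.7 RPM. T and Hoxa9 also reached their highest values at E9.5. Hand1 reached 11.3 RPM in females against 7.35 and 4.95 RPM at E9.5, and Mesp1 and Tbx6 reached their highest values at E12.5. The 7 hindgut markers, led by Afp, summed to 32.4 and 40.3 RPM at E9.5 against at most 12.2 RPM. Of these Foxa1 was highest in females, and Cdx2 reached 6.97 RPM in females against 5.51 and 6.13 RPM at E9.5. The other hindgut genes reached their highest values at E9.5. The 10 gonadal somatic markers summed to at most 27.3 RPM in any library, highest at E9.5. Sox9, Fst and Wnt4 were highest there, while Star, Gata4 and Wt1 reached their highest values in males at E12.5. What part these cells had in any difference from E9.5 was not tested.

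Promoters of respiratory chain genes are known for sites of nuclear respiratory factor 1 (NRF1), of the ETS factor GABP and of YY1. RefSeq promoter windows (build GRCm38.p6, the 250 bases before to 50 bases after a start) were found for 74 of the 90 genes, 80 windows in all. Of these windows, 33.8% held the NRF1 core GCGCNTGCG on either strand, against 14.5% of the 10812 windows of tested genes. The ETS core CCGGAAG was in 21.3% against 19.0%, and the YY1 core AAGATGGCG in 11.3% against 3.30%. Of all 32851 windows, 6.31% held the NRF1 core, 8.86% the ETS core and 1.4% the YY1 core. The NRF1 core is nearly its own reverse complement, so one stretch can match on both strands. Shown are 2 pairs of promoters chosen because they share a core while their genes moved in opposite directions between E9.5 and E12.5. Atp5g2, which rose in both sexes, and Atp5k, which fell in both, share the same NRF1 stretch. Atp5k also holds an ETS core. Ndufs7, which rose in both sexes, and Ndufs6, which fell in both, share the YY1 core close after the start. The male rise of Ndufs7 and the female fall of Ndufs6 were lost without any 1 of the 4 libraries compared. Ndufs6 also holds an NRF1 core, and Ndufs7 was the only tested gene with the YY1 core that rose in either sex. Each sequence runs 5′ to 3′ on the strand of its gene, and capitals mark matches to the 3 cores.
Atp5g2: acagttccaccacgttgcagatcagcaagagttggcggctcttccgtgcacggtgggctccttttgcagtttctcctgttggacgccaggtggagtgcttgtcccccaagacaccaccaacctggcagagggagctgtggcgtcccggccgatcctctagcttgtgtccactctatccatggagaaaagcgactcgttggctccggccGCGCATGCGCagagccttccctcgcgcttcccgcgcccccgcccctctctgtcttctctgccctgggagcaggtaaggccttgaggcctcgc
Atp5k: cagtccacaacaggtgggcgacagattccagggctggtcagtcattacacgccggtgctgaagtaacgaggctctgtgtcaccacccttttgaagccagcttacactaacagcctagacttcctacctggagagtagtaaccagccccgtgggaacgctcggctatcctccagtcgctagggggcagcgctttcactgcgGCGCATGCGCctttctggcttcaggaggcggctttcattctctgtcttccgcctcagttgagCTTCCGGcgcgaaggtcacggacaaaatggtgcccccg
Ndufs7: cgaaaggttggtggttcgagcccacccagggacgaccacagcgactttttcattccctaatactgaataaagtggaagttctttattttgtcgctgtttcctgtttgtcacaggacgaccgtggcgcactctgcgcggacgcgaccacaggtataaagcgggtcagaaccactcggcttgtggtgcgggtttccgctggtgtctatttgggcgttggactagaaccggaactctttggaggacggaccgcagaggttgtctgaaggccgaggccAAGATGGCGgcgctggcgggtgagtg
Ndufs6: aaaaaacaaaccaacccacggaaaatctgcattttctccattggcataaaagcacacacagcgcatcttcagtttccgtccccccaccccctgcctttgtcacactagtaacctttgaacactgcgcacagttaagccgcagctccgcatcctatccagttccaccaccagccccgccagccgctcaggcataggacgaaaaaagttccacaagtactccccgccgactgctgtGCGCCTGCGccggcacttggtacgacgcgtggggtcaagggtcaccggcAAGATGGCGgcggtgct
The windows lie at chr15:102670998-102671297 (minus strand), chr5:108434350-108434649 (minus strand), chr10:80249199-80249498 (plus strand) and chr13:73328433-73328732 (minus strand). A match describes letters in a window and is not a measured binding site. Of the 24 tested genes with an NRF1 core, 3 rose and 6 fell in males between E9.5 and E12.5, and of the 48 without it 10 rose and 13 fell. In females 4 rose and 6 fell with the core, and 14 rose and 8 fell without it. Among the 8 genes with the YY1 core, 1 rose and 4 fell in each sex, and of the 64 without it 12 rose and 15 fell in males and 17 rose and 10 fell in females. Over all tested genes, 20.0% rose and 17.6% fell in males, and 20.4% and 17.1% in females.

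The respiratory subunits as a whole took a narrow share of the reads in every group. Of the 90 genes, 57 had 100 RPM or more in all 12 libraries and 85 were tested. The 82 subunit genes summed to 25834 RPM (d4c7 replicate 2) at the lowest and to 28220 RPM (female E12.5 replicate 1) at the highest, or 2.58% to 2.82% of the RPM scale. Across the 85 tested genes, the highest group mean was a median 1.54 times the lowest. It was under 1.5 times in 40 genes and at least 2 times in 18. Of the genes above the level of 3 reads in every group, Cox7a1 had the largest ratio, 4.76. In bulk RNA a lower level cannot be told apart from fewer cells of the kind that expresses the gene.

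**Figure D1:**
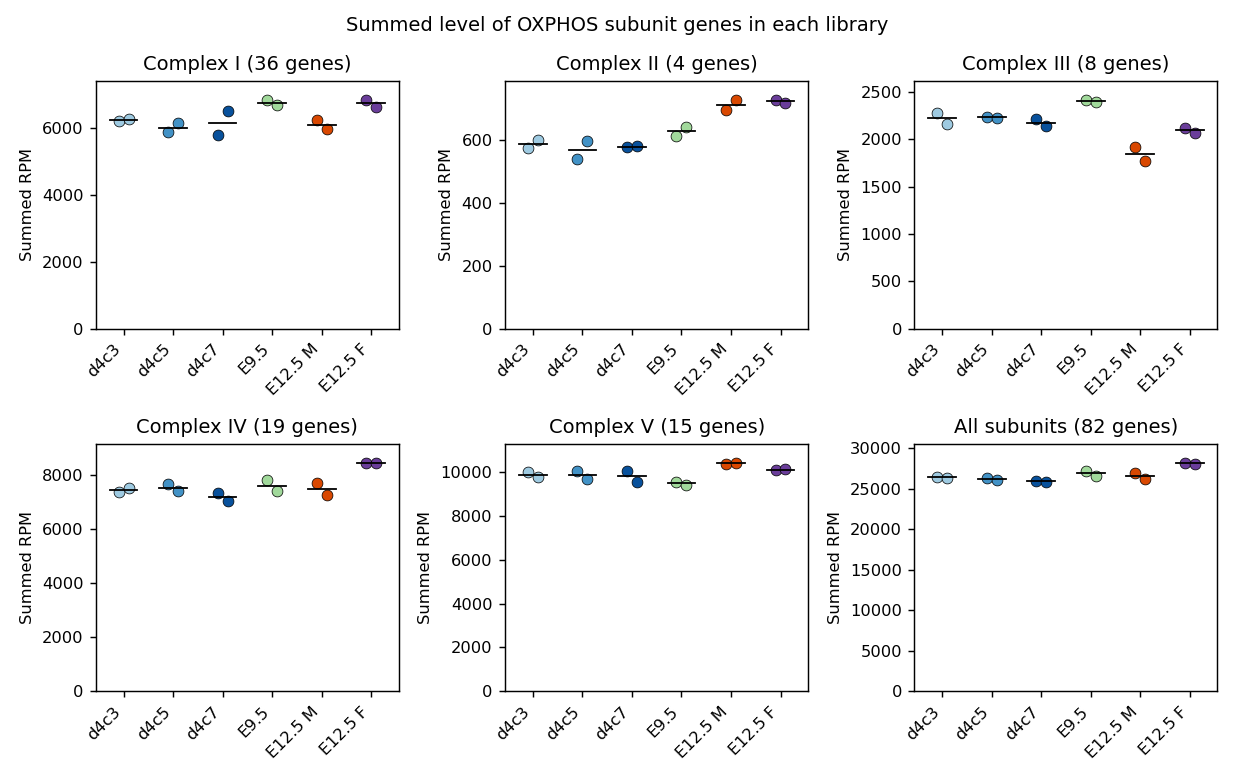
Summed RPM of the subunit genes of each complex (y axis, from 0) in each of the 12 libraries (points), with the mean of the 2 libraries of a group (line). The sum over all 82 genes lies between 25834 and 28220 RPM in every library, while complex III is lowest in the male E12.5 libraries and complex IV highest in the female ones.

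The complexes did not move together between groups. The complex III sum was 2413 and 2393 RPM at E9.5, 1918 and 1765 RPM in E12.5 males and 2122 and 2066 RPM in E12.5 females, with 2279 and 2163 RPM at d4c3 and 2212 and 2134 RPM at d4c7. Both male values were below those of the other 10 libraries. For complex II the sums were 612 and 640.4 RPM at E9.5, 695 and 726 RPM in males and 725 and 718 RPM in females. All 4 E12.5 libraries thus lay above the E9.5 libraries, and those of culture ran from 538 to 598 RPM. Complex IV was highest in females, at 8451 and 8464 RPM, against 7722 and 7283 RPM in males and 7041 to 7813 RPM in the remaining libraries. Complex I sums were 6851 and 6705 RPM at E9.5, 6249 and 5972 RPM in males and 6842 and 6655 RPM in females. Complex V sums were 9574 and 9394 RPM at E9.5, 10385 and 10429.6 RPM in males and 10080.0 and 10152 RPM in females, so that the 4 E12.5 libraries again lay above the E9.5 pair. These sums were not tested, since a few highly expressed genes dominate them.

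**Figure D2:**
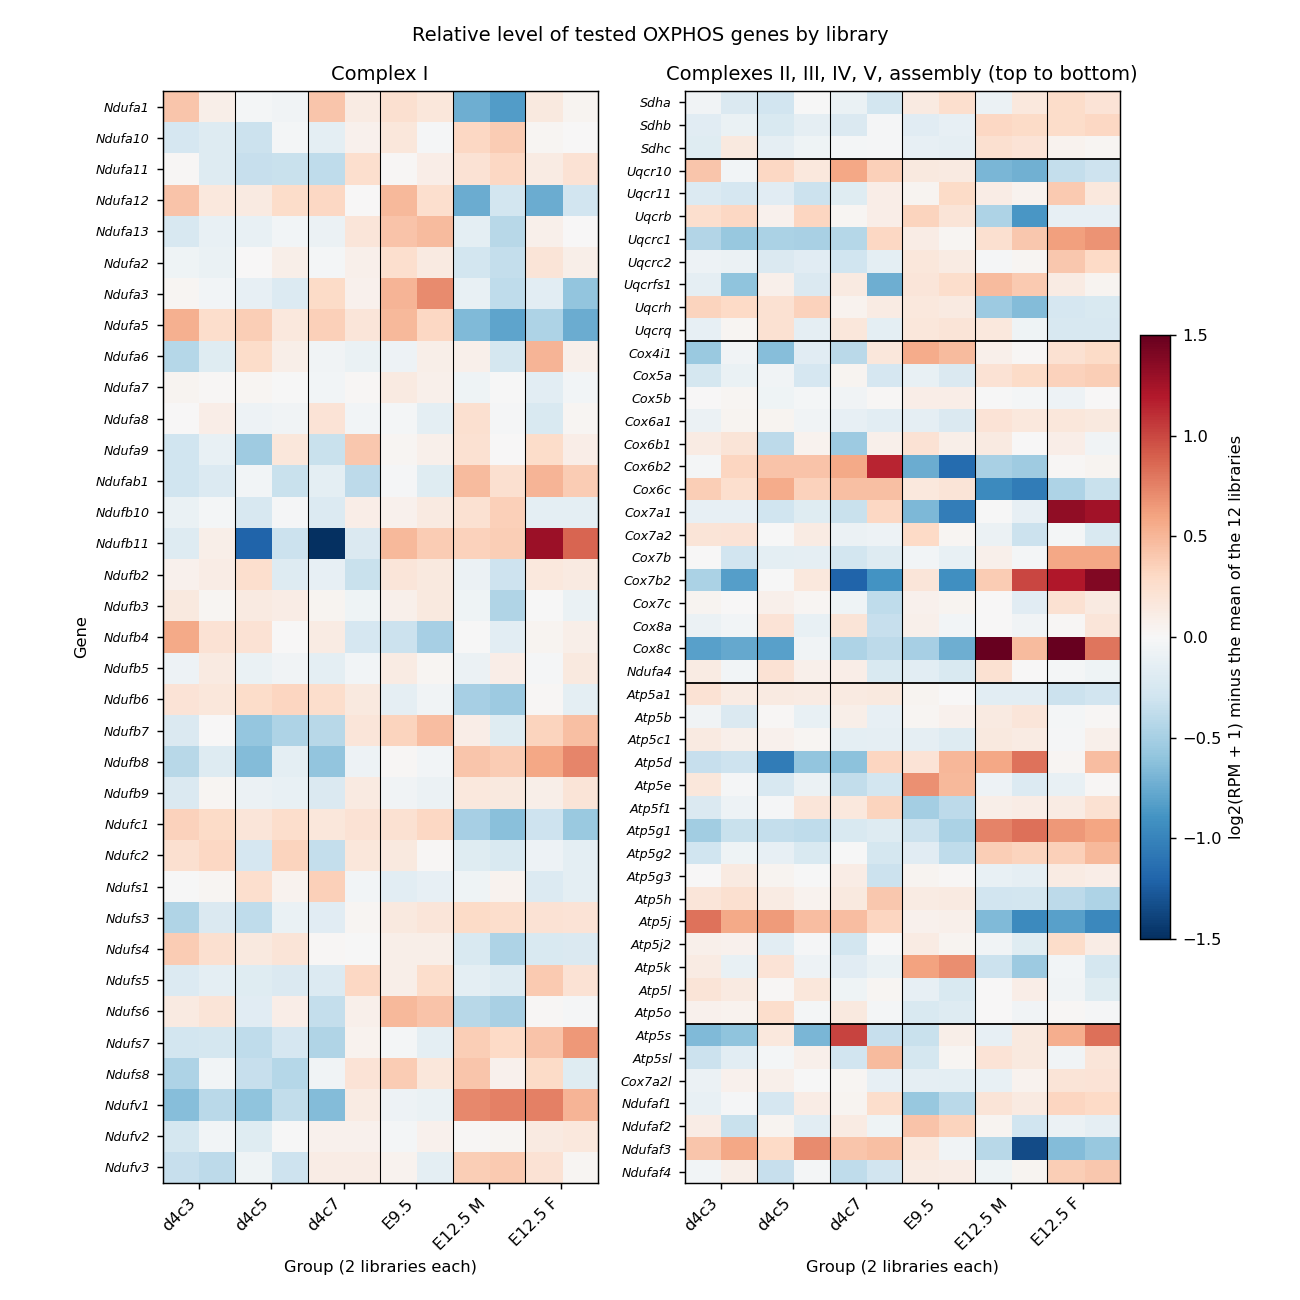
Relative level of 83 of the 84 tested genes of the complexes and their assembly factors (rows) in the 12 libraries (columns, 2 per group), as log2(RPM + 1) minus the mean of the gene over all libraries. Colours stop at 1.5 in either direction. Within a complex, red and blue rows stand side by side in the E12.5 columns, and Cox7a1, Cox7b2 and Ndufb11 are highest in the female E12.5 columns.

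The first question was how these genes changed as migrating PGCs of E9.5 became gonadal germ cells at E12.5. Subunits moved in both directions within the same complex. In males 15 of the 85 tested genes rose and 22 fell, that is 43.5% called against 37.7% of all tested genes (20.0% higher, 17.6% lower). In females 19 rose and 19 fell, 44.7% against 37.5% (20.4% higher, 17.1% lower). By complex, from I to V, the shares called in males were 41.7%, 66.7% (of 3 tested genes), 37.5%, 40% and 53.3%. The female shares were 36.1%, 33.3%, 62.5%, 53.3% and 53.3% in the same order. Of the assembly and accessory factors 42.9% were called in each sex. The median change over the 85 genes was -0.072 in males and 0.045 in females, against 0.048 and 0.044 over all tested genes. Both comparisons share the E9.5 libraries. Of the genes called in males, 12 of the 15 that rose and 16 of the 22 that fell were called in the same direction in females, and none in the opposite one. Under all alternatives run, 19 of the 37 male and 18 of the 38 female calls were kept. Counts depended on single libraries: the male count was 24 without E9.5 replicate 2. The female count was 24 and 20 without E9.5 replicate 1 and 2, and 21 and 25 without female replicate 1 and 2. With each library's median log ratio set to 0, the split in males was 13 higher and 27 lower.

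Complex I, the NADH dehydrogenase, has 7 catalytic core subunits encoded in the nucleus, which carry its flavin and iron-sulfur clusters, and many accessory subunits around them. In males 2 of the 7 core genes rose and none fell, while of the 29 accessory genes 2 rose and 11 fell. In females the core counts were 2 higher and 1 lower, and the accessory counts 3 higher and 7 lower. Ndufv1 encodes the subunit that binds NADH. Its levels were 114 and 112 RPM at E9.5, 198 and 203 RPM in males and 203 and 171 RPM in females at E12.5. All 4 E12.5 values were above the E9.5 pair, with a log2 change of 0.82 ± 0.20 in males (limma adjusted p = 0.00499) and 0.72 ± 0.20 in females (adjusted p = 0.011). Ndufs7, whose product carries the last iron-sulfur cluster before ubiquinone, rose by 0.42 in males (limma adjusted p = 0.0372) and 0.63 in females (adjusted p = 0.00452). When 1 library was left out, the male call of Ndufs7 (any of the 4, and with the filter lifted) was lost, and so were the female calls of Ndufv1 (either E9.5 library or female replicate 1) and Ndufs7 (E9.5 replicate 2 or female replicate 2).

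The falls among accessory subunits of complex I were led by Ndufa5, at chr6:24518662-24527690. It was at 150.4 and 134 RPM at E9.5, 67.5 and 61.7 RPM in males and 77.3 and 63.9 RPM in females at E12.5, so that no E12.5 value exceeded 77.3 RPM and both E9.5 values were above 130 RPM. The log2 change was -1.12 ± 0.15 in males (limma adjusted p = 5.52e-05) and -1.0 ± 0.15 in females (adjusted p = 0.000155). Ndufs6, a zinc-binding subunit, was at 369 and 352 RPM at E9.5, 196 and 187 RPM in males and 266 and 259.9 RPM in females at E12.5. Its fall was -0.91 in males (limma adjusted p = 0.000149) and -0.45 in females (adjusted p = 0.0163). Ndufa13, known also as a cell death regulator (GRIM-19), fell in both sexes, by -0.74 and -0.42 in males and females. Ndufa3, Ndufa12, Ndufc1 and Ndufs4 also fell in both sexes, with changes between -0.98 and -0.31. Near its end Ndufa3 overlaps Tfpt on the other strand, and whether reads were counted by strand is not given in the sources used here. Rises among the accessory genes included Ndufab1, the mitochondrial acyl carrier protein, at 212 and 190.4 RPM at E9.5, 301 and 255 RPM in males and 308 and 282 RPM in females at E12.5. It rose by 0.46 in males and 0.55 in females (limma adjusted p = 0.0145 and 0.00529). Ndufb8, in the membrane arm, rose in females by 0.66 (limma adjusted p = 0.00867). Among these accessory genes, leaving out 1 library ended the male calls of Ndufa12 (E9.5 replicate 1 or male replicate 1), Ndufs4 (male replicate 2) and Ndufab1 (E9.5 replicate 2 or male replicate 1), and the female calls of Ndufs6 (any of the 4), Ndufa13 (any of the 4), Ndufa12 (E9.5 replicate 1 or female replicate 1), Ndufs4 (any of the 4), Ndufab1 (E9.5 replicate 2 or female replicate 1) and Ndufb8 (E9.5 replicate 2 or female replicate 2).

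Complex II is succinate dehydrogenase, which also works in the tricarboxylic acid cycle. Its iron-sulfur subunit gene Sdhb was at 189 and 194 RPM at E9.5, 263 and 259 RPM in males and 256 and 263 RPM in females at E12.5. Every E12.5 library was above both E9.5 libraries, and the log2 change was 0.44 ± 0.10 in males (limma adjusted p = 0.00415) and 0.43 ± 0.10 in females (adjusted p = 0.00484). Sdhc, a membrane anchor, rose in males by 0.35 (limma adjusted p = 0.0276), a call lost without any 1 of the 4 libraries compared and under median scaling. Its change in females, 0.17, was not called. Sdha, the flavoprotein, had uncalled changes of -0.16 in males and 0.045 in females. Sdhd, the other anchor, stayed between 1.57 and 4.44 RPM in all 12 libraries and was not tested. The lowest value of the other Sdh genes was 153 RPM (Sdhc in d4c3 replicate 1). Whether the low Sdhd reading reflects its RNA level or the counting was not tested.

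In complex III, 3 of 8 genes fell in males and 4 in females, most of them small subunits around the catalytic centre. The share called in males, 37.5%, was near the 37.7% of all tested genes. In females, where 1 gene also rose, it was 62.5% against 37.5%. Uqcrb, a ubiquinone-binding subunit, was at 592 and 537 RPM at E9.5, 340.2 and 256 RPM in males and 431 and 431 RPM in females at E12.5. It fell by -0.93 in males (limma adjusted p = 8.15e-05) and -0.39 in females (adjusted p = 0.0279). The hinge protein gene Uqcrh was at 483 and 475 RPM at E9.5, 296 and 275 RPM in males and 364 and 369.8 RPM in females at E12.5, with changes of -0.74 and -0.38 (limma adjusted p = 3.14e-05 and 0.00453). Uqcr10 changed by -0.85 in males and -0.48 in females. In both sexes these 3 genes had no E12.5 value above an E9.5 value, and the lowest values were male. In females Uqcrq fell as well, by -0.42, and Uqcrc1, a core protein of the matrix side, rose by 0.58 (limma adjusted p = 0.0247). The female calls of Uqcrb, Uqcrq, Uqcr10 and Uqcrc1 were lost without any 1 of the 4 libraries, and those of Uqcrb, Uqcrq and Uqcrc1 also with the filter on low values lifted. No complex III gene rose in males, and 1 rose in females. Uqcr11, another small subunit, had uncalled changes of -0.079 and 0.12. The Rieske iron-sulfur gene Uqcrfs1 had uncalled changes of 0.20 and -0.15.

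Complex IV, cytochrome c oxidase, had 4 genes higher and 2 lower of 15 tested in males, and 7 higher and 1 lower in females. Counted among the rises are Cox8c in both sexes and Cox7b2 in females. Both genes reached 5 RPM only in E12.5 libraries, so the filter admitted them through the groups where they are high. Cox6c, a small membrane subunit, had the deepest fall. It was at 556 and 569.6 RPM at E9.5, 256 and 239.6 RPM in males and 360.5 and 394 RPM in females at E12.5. The log2 change was -1.18 ± 0.099 in males (limma adjusted p = 1.23e-06) and -0.58 ± 0.099 in females (adjusted p = 0.000534), with male values below female values and both below E9.5. Cox6c overlaps Vps13b on the other strand near its end. Cox5a, a subunit on the matrix side, was at 805 and 748 RPM at E9.5, 1012 and 1057 RPM in males and 1108 and 1119 RPM in females at E12.5, and rose by 0.41 in males (limma adjusted p = 0.00965) and 0.52 in females (adjusted p = 0.00238). Cox6a1 rose by 0.36 and 0.34. Cox7b, which is X-linked, rose in females from 690.1 and 657 RPM to 1059.6 and 1064 RPM (limma adjusted p = 0.000241), and its male change of 0.10 was not called. Cox4i1, the largest nuclear subunit, was at 789 and 741 RPM at E9.5, 562 and 539.5 RPM in males and 626 and 654 RPM in females at E12.5. Its male change of -0.47 (limma adjusted p = 0.0636) was called with median scaling, with the replicate number as a block and in a fit of the E9.5 and male libraries alone. Ndufa4, once counted to complex I and now to complex IV, had uncalled changes of 0.31 and 0.15, of which the male one was called with the block and in a fit of the E9.5 and male libraries alone. Leaving out 1 library ended the male calls of Cox5a (E9.5 replicate 2 or male replicate 2) and Cox6a1 (E9.5 replicate 2) and the female call of Cox6a1 (E9.5 replicate 2 or female replicate 1).

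Complex V had 4 genes higher and 4 lower of 15 in males, and 3 higher and 5 lower in females. Its membrane rotor is a ring of identical c subunits encoded by Atp5g1, Atp5g2 and Atp5g3, which differ in the import sequence that is cut off. Atp5g1, at chr11:96072793-96075694, was at 683 and 618 RPM at E9.5, 1434 and 1525 RPM in males and 1349 and 1297 RPM in females at E12.5. All E12.5 values were well above the E9.5 pair, and the log2 change was 1.19 ± 0.093 in males (limma adjusted p = 6.99e-07) and 1.02 ± 0.093 in females (adjusted p = 3.62e-06). Atp5g2, the NRF1-matched promoter shown above, was at 516 and 449 RPM at E9.5, 752 and 734 RPM in males and 746 and 814 RPM in females at E12.5, a rise of 0.62 and 0.69 (limma adjusted p = 0.00089 and 0.000443). The third c-ring gene, Atp5g3, was at 1008 and 989.6 RPM at E9.5, 905 and 891 RPM in males and 1065 and 1052 RPM in females at E12.5 with uncalled changes of -0.15 and 0.084. In the peripheral stalk, Atp5f1 (subunit b) rose by 0.55 in males and 0.62 in females, while Atp5j (coupling factor 6) fell from 467 and 469.9 RPM to 281 and 229 RPM in males and 253 and 228 RPM in females. The Atp5j change was -0.88 ± 0.12 and -0.96 ± 0.12 (limma adjusted p = 8.87e-05 and 5.27e-05). Atp5h (subunit d of the stalk) fell by -0.42 and -0.56. Atp5k (subunit e, at the contact between paired synthases), whose promoter holds the same NRF1 stretch as that of Atp5g2, was at 169 and 179.5 RPM at E9.5, 88.2 and 75.4 RPM in males and 108 and 92.4 RPM in females at E12.5. It fell by -1.08 in males (limma adjusted p = 6.19e-05) and -0.80 in females (adjusted p = 0.000742). In the F1 head, Atp5e (subunit epsilon) fell by -0.73 and -0.63, and the catalytic Atp5b was not called (0.11 and -0.048). A single library left out ended 1 call named here, the male one of Atp5h (E9.5 replicate 2).

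Among the assembly factors found by name, Ndufaf1, which helps to build complex I, rose from 30.1 and 34.0 RPM to 51.9 and 50.0 RPM in males and 57.0 and 55.8 RPM in females (limma adjusted p = 0.0081 and 0.00235). Ndufaf2 fell by -0.51 and -0.49 (limma adjusted p = 0.0383 and 0.0442). Ndufaf3 fell in males, by -0.93 (limma adjusted p = 0.0104), and overlaps Impdh2 near its end. Cox7a2l, which joins complexes III and IV, rose in females by 0.34 (limma adjusted p = 0.0176). Leaving out 1 library ended the male calls of Ndufaf1 (E9.5 replicate 1 or male replicate 1), Ndufaf2 (either E9.5 library or male replicate 2, and with the filter lifted) and Ndufaf3 (E9.5 replicate 1 or male replicate 2), and the female calls of Ndufaf2 (any of the 4, and with the filter lifted) and Cox7a2l (any of the 4, and with median scaling).

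**Figure D3:**
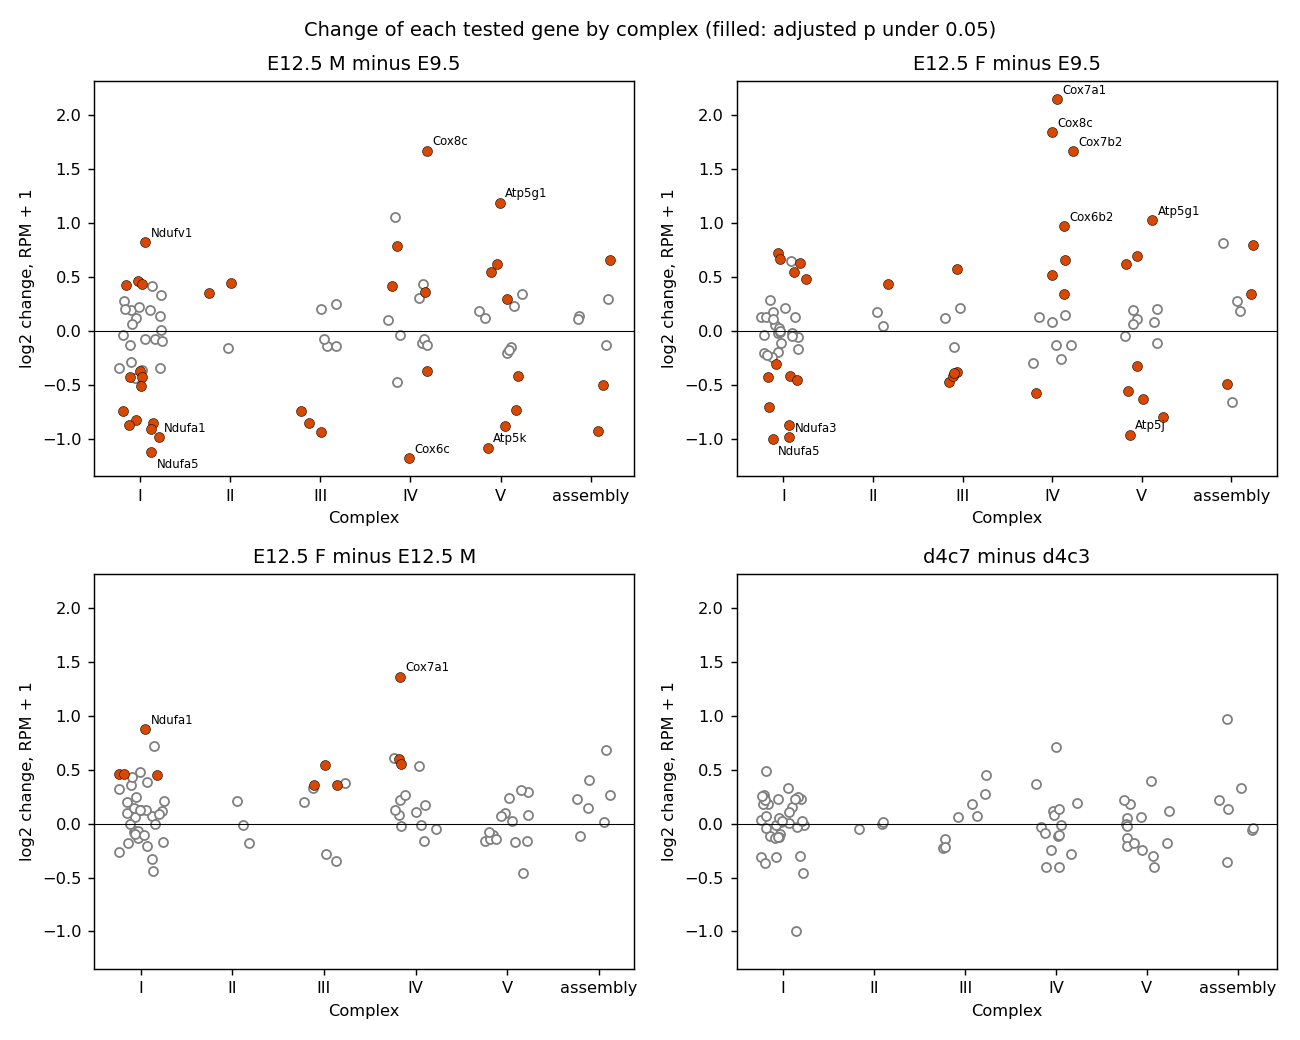
Log2 change of each of the 84 tested genes (points) by complex (x axis, I to V and assembly factors) in 4 comparisons, filled where limma's adjusted p was under 0.05. Called points lie on both sides of 0 in complexes I, III, IV and V of the female E12.5 against E9.5 comparison, all called points of the comparison of females with males are above 0, and none is called between culture days 7 and 3. The Cox8c points depend on the pseudocount, since its E9.5 values lie under the level of 3 reads.

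Some complex IV subunits have a second gene that is used in particular tissues, and several of these were present in germ cells. Cox7a1, the heart and skeletal muscle form of subunit 7a, was at 10.7 and 8.02 RPM at E9.5, 17.5 and 16.0 RPM in males and 45.5 and 43.5 RPM in females at E12.5. The female values were more than 40 RPM and stood apart from all other libraries, the highest of which was 22.1 RPM (d4c7 replicate 2). Its rise from E9.5 was 2.15 ± 0.26 in females (limma adjusted p = 3.25e-05) and 0.79 ± 0.26 in males (adjusted p = 0.026; lost without E9.5 replicate 2 or either male library). As a share of Cox7a1 and Cox7a2 reads together, Cox7a1 was 4.79% ± 0.333 (SD, n = 2) at E9.5, 10.5% ± 0.489 in males and 22.9% ± 1.17 in females. Cox7a2, the broadly used form, fell in males from 202 and 168 RPM to 154 and 131 RPM (limma adjusted p = 0.0326), a call lost without the filter on low values and without E9.5 replicate 1 or male replicate 2. In females it was at 161 and 139.9 RPM, which was not called.

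Cox6b2, the testis form of subunit 6b, was at 72.8 and 54.5 RPM at E9.5, 86.9 and 84.3 RPM in males and 123 and 126 RPM in females at E12.5. The female rise was 0.97 ± 0.18 (limma adjusted p = 0.000953), and the male change of 0.44 was not called (adjusted p = 0.0735). Its share of Cox6b1 and Cox6b2 reads was 10.1% ± 1.29 (SD, n = 2) at E9.5, 13.8% ± 0.541 in males and 19.5% ± 1.37 in females. Cox6b1 itself was not called in either sex (-0.079 and -0.13). The testis forms Cox7b2 and Cox8c were low and reached 5 RPM, the level of the filter, only in E12.5 libraries. Cox7b2 was at 3.68 and 1.18 RPM at E9.5, 4.38 and 7.23 RPM in males and 8.49 and 9.81 RPM in females at E12.5, called in females (limma adjusted p = 0.00558; lost without E9.5 replicate 2) and not in males (adjusted p = 0.0535). Cox8c was at 0.735 and 0.472 RPM at E9.5, 6.56 and 2.41 RPM in males and 6.67 and 3.27 RPM in females at E12.5, and was called in both sexes (limma adjusted p = 0.0107 and 0.00623), calls lost without E9.5 replicate 2, without replicate 1 of that sex, in a fit of the libraries compared alone and, in males, also without E9.5 replicate 1. The E9.5 values of Cox8c lie under the level of 3 reads, 1.10 and 0.708 RPM, so its fold is not resolved. Cox4i2 (lung) reached 0.303 RPM in 1 library and was at 0 in 11, Cox6a2 and Cox8b (heart and skeletal muscle) were at 0 in all 12, and Ndufa4l2 reached at most 1.56 RPM. Where a gene is at 0, as many as 3 reads could have been missed, or 0.517 to 1.36 RPM depending on the library. These limits cover counting error only.

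**Figure D4:**
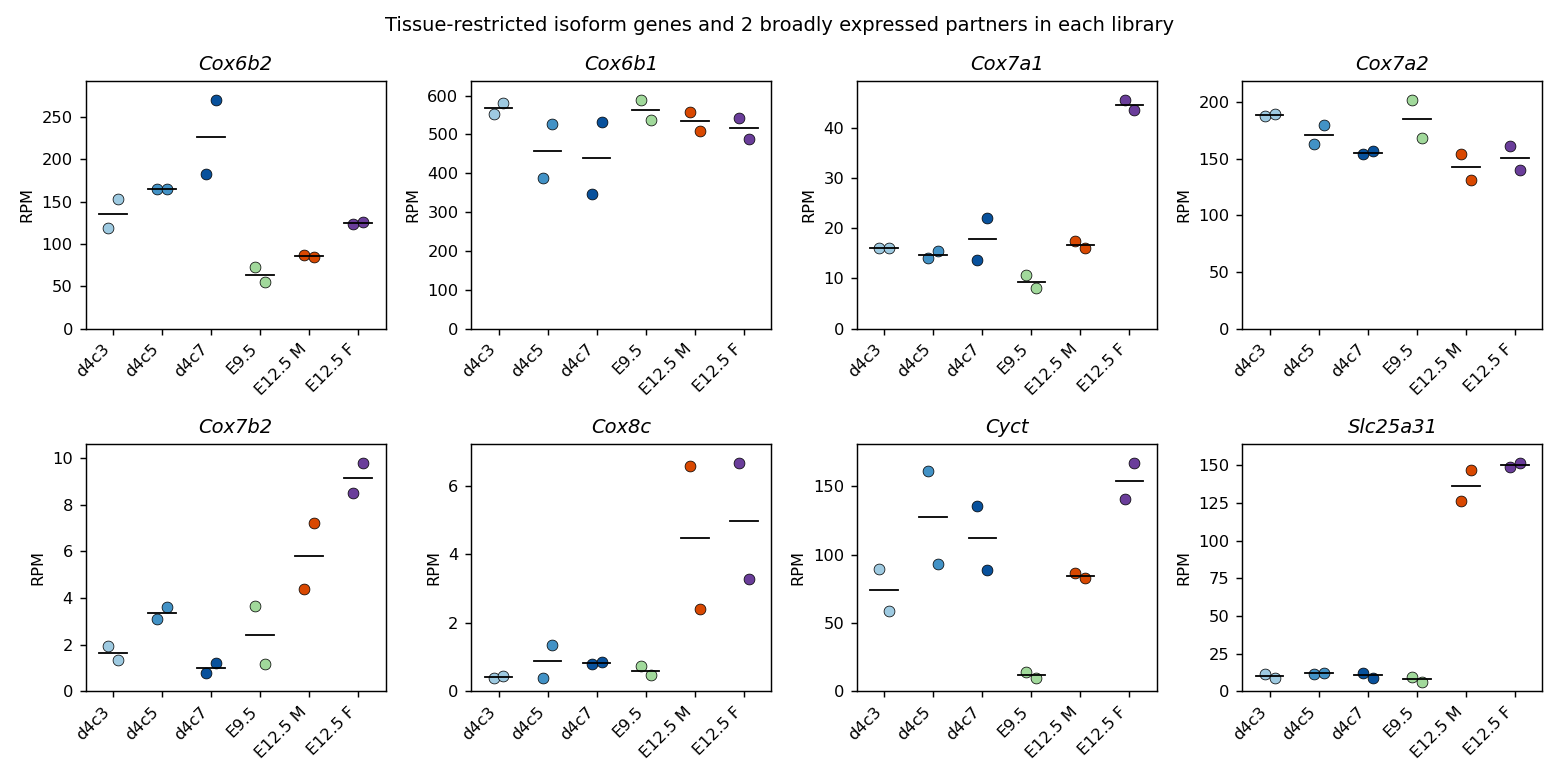
RPM (y axis, from 0) of 6 isoform genes with tissue-restricted use and of Cox6b1 and Cox7a2, the broadly used partners of Cox6b2 and Cox7a1, in each of the 12 libraries (points, line at the group mean). Cox7a1 is above 40 RPM in both female E12.5 libraries and at most 22.1 RPM elsewhere, Cox6b2 is highest at d4c7, and Slc25a31 is above 100 RPM in the 4 E12.5 libraries and at most 12.2 RPM elsewhere.

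Genes around the chain were also called between E9.5 and E12.5. Of 17 electron carriers and related carriers, 3 rose and 5 fell in males, and 5 rose and 1 fell in females. That is 47.1% called in males and 35.3% in females, against 37.7% and 37.5% of all tested genes. The germ cell isoforms led the rises. Cyct, the testis form of cytochrome c, was at 14.3 and 9.44 RPM at E9.5, 86.3 and 83.1 RPM in males and 140.4 and 167 RPM in females at E12.5, changes of 2.76 ± 0.28 and 3.61 ± 0.28 (limma adjusted p = 6.2e-06 and 6.28e-07). Slc25a31, the ATP and ADP exchanger of male germ cells (ANT4), was at 9.56 and 6.13 RPM at E9.5, 126 and 147 RPM in males and 149 and 152 RPM in females at E12.5, changes of 3.98 ± 0.24 and 4.12 ± 0.24 (limma adjusted p = 5.78e-08 and 8.25e-08). Both genes were higher in every E12.5 library, male and female, than at E9.5. The common forms did not rise with them: Cycs fell in males by -0.47 and Slc25a5 by -0.43, and in females neither was called. The E9.5 cells were not split by sex, and what part the mix of sexes had in these male falls was not tested. Etfb, a subunit of the flavoprotein that carries electrons from fatty acid oxidation, fell from 213 and 228 RPM to 74.1 and 87.6 RPM in males and 77.3 and 86.0 RPM in females (limma adjusted p = 1.12e-05 and 1.59e-05). Its partner Etfa had an uncalled male change of 0.19 and rose in females by 0.62. The complex III gene Cyc1 had an uncalled male change of 0.051 and rose in females by 0.36 (limma adjusted p = 0.0167). Lost with 1 library left out were the male call of Slc25a5 (either male library or E9.5 replicate 1) and the female call of Cyc1 (either E9.5 library or female replicate 2, and with median scaling).

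In the list of pyruvate dehydrogenase and tricarboxylic acid cycle genes, which supply the chain with NADH, 11 of 24 tested rose and 1 fell in males, and 11 rose and none fell in females, against the shares of all tested genes given above (20.0% higher and 17.6% lower in males, 20.4% and 17.1% in females). The median change of this list was 0.28 in males and 0.35 in females, and 0.048 and 0.044 over all tested genes. Pdp1, the phosphatase that activates pyruvate dehydrogenase, was at 7.35 and 5.66 RPM at E9.5, 30.6 and 31.6 RPM in males and 40.3 and 51.0 RPM in females at E12.5 (limma adjusted p = 5.39e-05 and 1.15e-05). Its kinase Pdk1, which acts the other way, rose as well, by 0.94 and 0.58. Brp44 (Mpc2), of the mitochondrial pyruvate carrier, rose by 1.12 and 1.14, and its partner Brp44l (Mpc1) by 0.46 and 0.72. Fh1, Ogdh and Mdh2, enzymes of the cycle, rose in both sexes by 0.38 to 0.87. The gene lower in males was Idh3b, at -0.36 (limma adjusted p = 0.0197). Leaving out 1 library ended the male calls of Brp44l (either E9.5 library or male replicate 2), Fh1 (any of the 4, and with the filter lifted), Ogdh (E9.5 replicate 1 or male replicate 2), Mdh2 (E9.5 replicate 2 or male replicate 2) and Idh3b (any of the 4), and the female call of Pdk1 (either E9.5 library or female replicate 1, and with the filter lifted).

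Of 38 tested assembly factors outside the names, 8 rose and 11 fell in males, and 6 rose and 9 fell in females. That is 50% called in males and 39.5% in females, against 37.7% and 37.5% of all tested genes. The named falls included Fam36a (Cox20, for complex IV), from 61.0 and 58.0 RPM to 33.4 and 30.4 RPM and 33.0 and 29.4 RPM. The named rises included 1810063B05Rik (Coa6), from 45.6 and 53.8 RPM to 87.8 and 83.1 RPM and 92.8 and 85.7 RPM. In both genes every E12.5 value lay on one side of both E9.5 values. Of 15 tested regulators of respiratory genes and of mitochondrial DNA, 3 rose and 3 fell in males, and 4 rose and 3 fell in females. Their shares called were 40% in males and 46.7% in females, against the same shares of all tested genes. Yy1, whose core the Ndufs7 and Ndufs6 promoters above hold, was at 117 and 116 RPM at E9.5. At E12.5 Yy1 was at 86.3 and 72.3 RPM in males and 44.6 and 50.8 RPM in females. The changes were -0.56 ± 0.15 and -1.28 ± 0.15 (limma adjusted p = 0.01 and 3.04e-05). The male call of Yy1 was lost without either E9.5 library or male replicate 2. Pprc1, a coactivator of NRF1, rose by 0.69 and 0.48 (limma adjusted p = 0.000186 and 0.00294). Nrf1 and Gabpa were not called in either sex, with Nrf1 changes of 0.069 and 0.20 and Gabpa changes of 0.098 and 0.15. Ppargc1a and Ppargc1b, the other coactivators of the family, stayed under 1 RPM in all 12 libraries.

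The second question was whether the sexes differ at E12.5, which is also the test of whether their changes from E9.5 differ. All 10 called genes were higher in females: 10 higher and 0 lower of 85, or 11.8% called against 11.9% of all tested genes (6.68% higher, 5.27% lower). The 10 were Ndufa1, Ndufa2, Ndufb6 and Ndufs6 of complex I, Uqcrb, Uqcrh and Uqcrc2 of complex III, and Cox6c, Cox7a1 and Cox7b of complex IV, and none of complexes II or V. The median female minus male change over the 85 genes was 0.11, against -0.0020 over all tested genes. Cox7a1 had the largest difference, 1.36 ± 0.26 (limma adjusted p = 0.00364). Ndufa1, a membrane arm subunit of complex I at chrX:37187588-37191238, was at 129 and 122 RPM at E9.5, 65.3 and 60.5 RPM in males and 121 and 112 RPM in females at E12.5. The female pair lay near the E9.5 pair and the male pair well under it: the difference between the sexes was 0.88 ± 0.14 (limma adjusted p = 0.00125), the change from E9.5 -0.99 ± 0.14 in males (adjusted p = 0.000116) and -0.11 in females, not called. Cox6c differed by 0.60 ± 0.099 (limma adjusted p = 0.00149) and Cox7b by 0.56 ± 0.10 (adjusted p = 0.00306). The calls of Ndufa1, Cox6c, Cox7a1 and Cox7b held in all alternatives run. The others were lost with 1 library left out: Ndufa2 (male replicate 2 or female replicate 1), Ndufb6 (either male library or female replicate 1), Ndufs6 (any of the 4, and with the filter lifted), Uqcrb (either female library or male replicate 2, and with the filter lifted), Uqcrh (any of the 4) and Uqcrc2 (any of the 4). Counts were 6 and 4 without male replicate 1 and 2, 4 and 6 without female replicate 1 and 2, and 31 (25 higher, 6 lower) in a fit of the 4 libraries alone.

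X-linked genes as a group were higher in the female libraries. Of 409 tested X-linked genes 117 (28.6%) were higher in females and 5 lower, with a median difference of 0.43. Of the 90 genes, 3 are X-linked: Ndufa1, Cox7b and Ndufb11, a membrane arm subunit of complex I. The E9.5 cells were not split by sex. For these 3 genes a change from E9.5 thus cannot be told apart from a change in the mix of sexes. Ndufb11, at chrX:20615326-20617619, was at 234 and 217 RPM at E9.5, 213 and 216 RPM in males and 409 and 306 RPM in females at E12.5, a difference of 0.72 that was not called (limma adjusted p = 0.259), although both female values were the highest of all 12 libraries. The test takes its spread from all 12 libraries, and the Ndufb11 replicates lay furthest apart in culture (44.4 and 144 RPM at d4c7). The other 8 called genes are not on the X chromosome. Cox6c, Ndufa2, Ndufb6, Uqcrh and Uqcrc2 overlap another gene on the other strand near their ends.

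Of the surrounding genes, those higher in females included Ucp2, an inner membrane carrier, at 100.0 and 108 RPM at E9.5, 36.3 and 46.1 RPM in males and 106 and 101 RPM in females at E12.5. The male pair stood below all 10 other libraries, and the difference was 1.32 ± 0.20 (limma adjusted p = 0.00069). Pdk3, an X-linked kinase of pyruvate dehydrogenase, was at 110.3 and 111 RPM at E9.5, 121 and 131 RPM in males and 199 and 213 RPM in females at E12.5 and differed by 0.71 (limma adjusted p = 0.00125). The complex IV assembly factor 2310016M24Rik (Cox14) was at 146 and 133 RPM at E9.5, 78.1 and 75.0 RPM in males and 139 and 160.4 RPM in females at E12.5 and differed by 0.96 (limma adjusted p = 0.000672). Esrra, a nuclear receptor that acts on respiratory genes, was at 20.6 and 18.6 RPM at E9.5, 16.9 and 18.4 RPM in males and 38.2 and 42.5 RPM in females at E12.5 and differed by 1.15 (limma adjusted p = 0.0121). Yy1 and Polrmt, the mitochondrial RNA polymerase, were lower in females, with differences of -0.72 and -0.80 (limma adjusted p = 0.00705 and 0.0122). By list, 2 were higher and 1 lower in females of 17 carriers, 2 and 1 of 24 pyruvate and cycle genes, 3 and 2 of 15 regulators, and 1 and 0 of 38 assembly factors. The shares called were 17.6% of carriers, 33.3% of regulators and 2.63% of assembly factors, and 3 of the 24 pyruvate and cycle genes were called. Of all tested genes 11.9% were called. With 1 library left out, no call remained for Esrra (any of the 4), Yy1 (male replicate 1 or female replicate 1) and Polrmt (any of the 4).

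The third question was whether these genes changed during culture, from day 3 to day 7. None of the 85 was called, against 2.75% of all tested genes (1.67% higher, 1.08% lower), and 19 (22.4%) had an unadjusted p under 0.05 by limma, against 16.6% of all tested genes. The median change was 0.0082, and 0.016 over all tested genes. The smallest adjusted p belonged to Cox6b2, which was at 119 and 153 RPM at d4c3, 165 and 164 RPM at d4c5 and 182 and 269.9 RPM at d4c7. Its d4c7 values lay above the d4c3 values but far apart, and the change was 0.71 ± 0.18 (limma adjusted p = 0.0530). It was called with a pseudocount of 5 (adjusted p = 0.0456), with median scaling (adjusted p = 0.0402), with the replicate number as a block (adjusted p = 0.0444), and without d4c7 replicate 1 (adjusted p = 0.00781). The count was 7 without d4c7 replicate 1 and 6 without d4c7 replicate 2, and different genes made it up: Cox6b2, Atp5f1, Atp5g3, Cox7c, Ndufb4, Ndufv1 and Uqcrc1 in the first case, and Atp5e, Atp5s, Cox6b1, Ndufb11, Ndufc2 and Ndufs6 in the second. With the block 3 were called, Cox6b2, Atp5f1 and Ndufv3. As a share of Cox6b1 and Cox6b2 reads, Cox6b2 was 19.3% ± 2.16 (SD, n = 2) at d4c3, 26.8% ± 4.27 at d4c5 and 34.0% ± 0.567 at d4c7.

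The d4c7 libraries differed from each other more than those of other groups. Over the 85 genes, the replicate difference had a root mean square of 0.43 on the log2 scale at d4c7, against 0.19 to 0.27 in the other groups, and 12 genes differed by more than 1.5-fold. Over all tested genes the values were 0.56 at d4c7 and 0.33 to 0.49 in the other groups. The widest was Ndufb11, at 146 and 177 RPM at d4c3, 72.1 and 133 RPM at d4c5 and 44.4 and 144 RPM at d4c7, low in replicate 1 at both d4c5 and d4c7. Cox6b1 was at 553 and 582 RPM at d4c3, 387 and 526 RPM at d4c5 and 347 and 533 RPM at d4c7 with the same order, and Atp5s, a low accessory gene, was at 5.09 and 5.32 RPM at d4c3, 9.74 and 4.97 RPM at d4c5 and 18.5 and 6.55 RPM at d4c7 with the opposite one. Replicate 2 of d4c7 was the deepest library and replicate 1 had a depth similar to most others. The 2 libraries also differed in other measures. The stromal markers summed to 211 RPM in replicate 1 and 509 RPM in replicate 2, with Fn1 (113 and 417 RPM) as the main part of the gap. Vim and Thy1 were also higher in replicate 2. Col1a1, Col1a2, Col3a1 (9.42 and 1.55 RPM), Dcn (7.46 and 4.14 RPM), Pdgfra and Pdgfrb were higher in replicate 1. The germ cell marker Dazl was at 505 and 296 RPM, and the spike-ins summed to 64.8 and 0 RPM. The part of these and of depth in the differences was not tested.

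Of the 17 carriers, 3 fell during culture, or 17.6% called against 2.75% of all tested genes. Cycs, the common cytochrome c, was at 773 and 771 RPM at d4c3, 598 and 675 RPM at d4c5 and 557 and 512 RPM at d4c7, a change of -0.53 ± 0.092 (limma adjusted p = 0.00838). The ATP and ADP exchangers Slc25a4 and Slc25a5 fell by -0.48 and -0.54 (limma adjusted p = 0.02 and 0.0239). All d4c7 values of these 3 genes lay below all d4c3 values. Without d4c3 replicate 1 none of the 3 was called, nor in a fit of the 4 libraries alone, while Slc25a5 was also lost without d4c3 replicate 2 and both exchangers with the filter lifted. None of the other 77 tested genes of the 3 remaining lists was called.

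The fourth comparison set cultured cells at d4c3 beside E9.5 PGCs. Of the 85 genes, 6 were higher and 8 lower at d4c3, or 16.5% against 23.7% of all tested genes (13.4% higher, 10.3% lower). With median scaling the split was 4 higher and 11 lower. The E9.5 libraries hold the blood and other markers given above, and strain, reporter, sort and input RNA differ as well. Cox6b2 had the largest change, from 72.8 and 54.5 RPM at E9.5 to 119 and 153 RPM at d4c3, 1.09 ± 0.18 (limma adjusted p = 0.00069). Ndufb4, in the membrane arm of complex I, was at 124 and 109 RPM and 231 and 180.1 RPM, a change of 0.80 ± 0.15 (limma adjusted p = 0.00163), and Atp5j was at 467 and 469.9 RPM and 782 and 662 RPM, a change of 0.62 ± 0.12 (adjusted p = 0.00221). Ndufa13 was lower at d4c3, 226 and 248 RPM against 362 and 375 RPM at E9.5 (limma adjusted p = 0.00164). None of these 4 pairs of groups overlapped, and the 4 calls held under all alternatives run. Cox4i1 was at 363 and 514 RPM against 789 and 741 RPM (change -0.82 ± 0.19, limma adjusted p = 0.00608), and the fall of Atp5k was -0.64 (adjusted p = 0.00488). With 1 library left out, no call remained for Cox4i1 (d4c3 replicate 1 or E9.5 replicate 1) and Atp5k (d4c3 replicate 2 or E9.5 replicate 2). The count was 7 without either d4c3 library, 5 and 6 without E9.5 replicate 1 and 2, and 29 (10 higher, 19 lower) in a fit of the 4 libraries alone. Of the carriers, 6 of 17 were higher and none lower, led by Cyct at 89.2 and 59.0 RPM against 14.3 and 9.44 RPM (limma adjusted p = 2.3e-05), while Slc25a31 was at 11.7 and 8.87 RPM against 9.56 and 6.13 RPM and was not called. Of 24 pyruvate and cycle genes 4 were higher and 1 lower, of 38 assembly factors 2 and 1, and of 15 regulators 2 and 0. The shares called were 35.3% of carriers, 20.8% of pyruvate and cycle genes, 7.89% of assembly factors and 13.3% of regulators. Of all tested genes it was 23.7%. Gabpa, a subunit of GABP, was at 136 and 119.8 RPM against 69.1 and 68.4 RPM (limma adjusted p = 0.000841).

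The last comparison set the 6 culture libraries beside the 6 embryo libraries, as the mean of 3 groups against the mean of 3. Of the 85 genes, 19 were higher and 28 lower in culture, or 55.3% against 54.5% of all tested genes (27.7% higher, 26.8% lower). The median change was -0.095, against -0.0056 over all tested genes. By complex, the counts higher and lower were 8 and 12 of 36 in complex I, 0 and 2 of 3 in complex II, 3 and 4 of 8 in complex III, 2 and 5 of 15 in complex IV and 5 and 4 of 15 in complex V. Of the 7 core genes of complex I, 1 was higher and 4 lower. Under all alternatives run, 41 of the 47 calls were kept.

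Atp5j had the largest rise. In culture its lowest, median and highest values were 555, 638 and 782 RPM, and in the embryo 228, 267 and 469.9 RPM, so that the groups did not overlap. The change was 1.08 ± 0.07 (limma adjusted p = 4.54e-08). Cox6b2 (119, 165 and 269.9 RPM in culture, 54.5, 85.6 and 126 RPM in the embryo) was higher by 0.95 ± 0.10 (limma adjusted p = 5.58e-06), and its ranges overlapped in the d4c3 and female libraries. Cox6c was higher by 0.81 ± 0.057 (limma adjusted p = 9.05e-08), with no overlap. Ndufb11 was at 44.4 to 177 RPM in culture, median 138 RPM, and at 213 to 409 RPM in the embryo, median 226 RPM, a change of -1.25 ± 0.22 (limma adjusted p = 0.000311). Ndufv1 changed by -0.85 ± 0.11, Atp5g1 by -0.68 ± 0.054 and Ndufb8 by -0.70 ± 0.10 (limma adjusted p = 3.05e-05, 2.82e-07 and 5.91e-05). In complex II, Sdha changed by -0.31 and Sdhb by -0.29. In complex III, Uqcrc1 changed by -0.69 and Uqcrfs1 by -0.49, while Uqcr10 and Uqcrh were higher by 0.60 and 0.46. The E12.5 changes of these genes enter this mean: Atp5g1 was at 597 and 677 RPM at d4c3, 668 and 656 RPM at d4c5 and 728 and 747 RPM at d4c7, near its E9.5 values of 683 and 618 RPM. Strain, reporter, sort and input RNA cannot be told apart from culture here. Ndufb11 is X-linked, and its highest embryo values, 409 and 306 RPM, were female. The sex of the cultured cells is not stated here, so for this gene sex cannot be told apart from culture either.

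Every one of the 17 carriers was called between culture and embryo, 11 higher and 6 lower in culture, against 27.7% and 26.8% of all tested genes. Of these calls 3 were lost with 1 library left out: Gpd2 (E9.5 replicate 2 or male replicate 1), Slc25a5 (d4c3 replicate 1, d4c5 replicate 1, E9.5 replicate 2 or female replicate 2, and with the filter lifted) and Vdac3 (8 of the 12 libraries, and with the filter lifted). Etfb was higher by 1.34 ± 0.089 and Atpif1, the inhibitor of the ATP synthase, by 0.80 ± 0.078 (limma adjusted p = 5.56e-08 and 1.91e-06). Both had no overlap between culture and embryo. Slc25a31 changed by -2.25 ± 0.14 (limma adjusted p = 2.92e-08), and Cyct was higher by 0.86 ± 0.16 (adjusted p = 0.000418). Neither value holds against all embryo groups. Slc25a31 was at 11.7 and 8.87 RPM at d4c3, 11.7 and 12.2 RPM at d4c5 and 12.2 and 8.96 RPM at d4c7, near or above its E9.5 values and far below those of E12.5. Cyct was at 89.2 and 59.0 RPM at d4c3, 161 and 93.5 RPM at d4c5 and 136 and 88.4 RPM at d4c7, above its E9.5 values, while its female E12.5 mean exceeded each culture mean. Of the pyruvate and cycle genes 4 were higher and 12 lower of 24, of the assembly factors 12 and 6 of 38, and of the regulators 5 and 4 of 15. The shares called were 66.7%, 47.4% and 60% in that order, against 54.5% of all tested genes. Gabpa and Nrf1, whose products bind respiratory promoters, differed in opposite directions: Gabpa was at 96.7 to 139 RPM in culture and 68.4 to 83.4 RPM in the embryo, a change of 0.73 ± 0.087 (limma adjusted p = 1.16e-05), and Nrf1 at 11.7 to 20.3 RPM and 22.6 to 29.7 RPM, a change of -0.70 ± 0.15 (adjusted p = 0.00138). Yy1 was higher in culture by 0.75 ± 0.087 (limma adjusted p = 8.41e-06). Tested genes with an NRF1 core in their promoter were 7 higher and 8 lower of 24 in culture, and those without it 8 and 17 of 48. With the ETS core they were 5 and 6 of 16, and without it 10 and 19 of 56.

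The levels of these genes carry limits of the counting. The annotation names pseudogenes after some of them, among them Uqcrh, Atp5k, Atp5l, Ndufab1 and Atp5c1. How reads that match several places were treated is not given in the sources used here, so such levels are uncertain to that extent. Of the 90 genes, 13 have an exon of another annotated gene within the last 500 bases of the gene. Across genes, the male change from E9.5 had a Spearman correlation with mRNA length of 0.27 over these genes and 0.13 over all tested genes with a length. For the female change the values were 0.17 and 0.17, and for females against males -0.31 and 0.06. Length was that of the longest protein-coding transcript of a gene in GENCODE vM21, which need not be the one expressed. Genes are not independent replicates, so these correlations are descriptions.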

How the data were processed

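Levels were taken as deposited by the authors, in RPM (reads scaled to a fixed total in each library), in 1 table of 26218 gene rows. Build mm10 and the tools TopHat 1.4.1, Cufflinks 2.2.0 and cutadapt 1.3 are listed in the submitters' processing notes, with no role given. The handling of strand and of reads that match several places is not given in the sources used here. The 92 spike-in rows were left out. The smallest step of each library's values gave its estimated depth, and 3 reads correspond to 0.517 to 1.36 RPM. Of low values up to 20 steps, 80.2% to 85.8% lay within 0.1 of a whole read, so whole reads were not recovered and no count model was run.

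Members were chosen by symbol, and members and gene lists were chosen with earlier results of these data known. Values were log2 of RPM + 1, and genes with at least 5 RPM in at least 2 libraries were tested (10856, while 15362 were not). limma 3.58.1 in R 4.3.3 fitted 1 mean per group over all 12 libraries, with a trended variance, 6 residual degrees of freedom and 8.02 prior ones. p-values were adjusted by Benjamini and Hochberg over all tested genes of a comparison, and calls were made under 0.05. The fits were tested on simulated data. A fold on this scale understates the change of low genes. With 2 libraries per group an SD is an approximate value. Named by rule were, per comparison and complex, up to 3 called genes in each direction with the largest change and a higher group mean of at least 20 RPM, up to 2 per direction of each pathway list, and always the 4 Sdh genes and the tissue-restricted isoforms with their partners. Other genes named in the text were chosen after their values were seen. Cox4nb would have counted to complex IV by name and was set aside by its RefSeq identity. All 90 members matched RefSeq by gene ID. Of 102 pathway list entries 84 matched by symbol and 18 by gene ID, for example Mpc1 as Brp44l. The positions of genes and promoters are those of RefSeq on GRCm38.p6, and overlaps were taken from GENCODE vM21. Alternatives were pseudocounts of 0.5 and 5, no filter, median scaling, the replicate number as a block, only the libraries compared, and each library left out. Some results on single genes are not reported here.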

Additional observations from a re-analysis of the deposited data

Results flagged for a closer look

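The changes from E9.5 to E12.5 differed between the sexes in 10 of the 85 tested genes, by limma's test of female minus male libraries, in which the E9.5 libraries cancel out. All 10 were higher in females, and 11.9% of all tested genes were called in that test. The 10 genes, their values and the libraries on which their calls rest are given above.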

How the results depend on the processing

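No named gene reversed its direction of call under the alternatives run. Between culture days 7 and 3 the count of 0 became 1 with a pseudocount of 5, 1 with median scaling and 3 with the replicate block, and ran from 0 to 7 with 1 library left out. For E12.5 against E9.5, leaving out 1 library gave 24 to 29 calls in males (37 with all) and 20 to 25 in females (38 with all). Between the sexes the count of 10 was 31 in a fit of these libraries alone and 4 to 6 with 1 library left out. For d4c3 against E9.5 the count of 14 was 29 in such a fit and 5 to 7 with 1 library left out. For culture against embryo the count of 47 ran from 42 to 55. In a fit that leaves a group with 1 library, that library is assumed to vary like the other groups. Counts under the remaining alternatives were within 1.5 times of those reported. Replicate numbers in the labels name no shared day, litter or batch, and a group has 2. Replicate differences correlated between groups over all tested genes at 0.12 for d4c3 with d4c5, 0.13 for d4c3 with d4c7 and 0.46 for d4c5 with d4c7, and between -0.043 and 0.029 for pairs with an embryo group. Over the 85 genes the values were 0.31, 0.35 and 0.71 within culture, 0.54 between the sexes and -0.17 to 0.11 for the other pairs. The labels do not say what a shared number means, so the fits without the block are the ones reported; within culture the values are a hint from the data that numbers may be shared. With the replicate block the counts were 42 in males, 38 in females, 12 between the sexes, 17 for d4c3 against E9.5 and 48 for culture against embryo. Median scaling moved libraries by -0.036 to 0.066 on the log2 scale. Depth limits the lowest genes: where a group lies below 3 reads its fold is not resolved.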
